A study of Mus musculus with 16 samples.

Results

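The Bcl2 family sets whether a T cell under stress keeps its mitochondria intact or dies, and it was followed here in tumor-infiltrating T cells (TILs). The members were the rows of the count table named Bcl2, Bcl2l1, Mcl1, Bcl2a1b, Bcl2l11, Bax, Bak1, Bad, Bbc3 and Pmaip1. All 10 were found, each on a single row, among the 55450 genes of the table. The TILs came from subcutaneous tumors of B16F10, a mouse melanoma line, grown in C57BL/6J (WT) mice or in mice without Sirt2, an NAD-dependent deacetylase (Sirt2-/-, Sirt2KO in the labels). According to the methods, Sirt2-/- mice were the purchased strain B6.129-Sirt2tm1.1Fwa/J, mice were 7 to 8 weeks old with age- and sex-matched controls, and TILs were enriched on a Percoll gradient and with CD3ε beads. The deletion is in the host, in T cells and all other host tissues, while the tumor cells were the same line in each group. Total RNA was sequenced from 4 libraries each of CD4+ WT, CD4+ Sirt2-/-, CD8+ WT and CD8+ Sirt2-/- TILs, 16 in all. No drug or other treatment is named in the labels of these libraries. The labels give 4 per group and do not tie a library to an animal, so p-values measure the spread between these libraries. In bulk RNA, fewer cells of a type and less RNA per cell cannot be told apart.

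Members of this family share short BCL2 homology (BH) regions. Bcl2, Bcl2l1 (BCL-XL), Mcl1 and Bcl2a1b (A1) are pro-survival proteins that hold the other members in check. Bax and Bak1 are the effectors, which oligomerize in the outer mitochondrial membrane and release cytochrome c. Bcl2l11 (BIM), Bbc3 (PUMA), Pmaip1 (NOXA) and Bad are BH3-only proteins, which carry the BH3 helix that fits the groove of the pro-survival proteins. In T cells, cytokine signals are known to sustain Bcl2 and Mcl1, and Bcl2l11 is known for the death of T cells at the end of a response.

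The BH3 core is the stretch by which the 3 classes meet, and its coding sequence is shown for members whose levels are compared below. Coding sequences of the GENCODE annotation (GRCm38) were searched for a leucine codon, 3 codons of any kind, a codon for glycine, alanine or serine, and an aspartate codon. A single match was found in each of Bcl2, Bcl2l1, Mcl1, Bcl2l11, Bax, Bak1, Bad and Bbc3. Pmaip1 had 2 matches and Bcl2a1b had 0, which says only that these letters are not in its coding sequence. Capitals mark the 18 bases of the core, within a 45-base coding segment read 5′ to 3′ on the coding strand.
Bcl2, exon 1 of 2, chr1:106712572-106712616, minus strand: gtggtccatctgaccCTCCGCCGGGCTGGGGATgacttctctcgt
Mcl1, exon 1 of 3, chr3:95659421-95659465, plus strand: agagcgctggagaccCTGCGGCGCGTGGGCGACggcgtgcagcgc
Bcl2l11, exon 3 of 4, chr2:128147135-128147179, plus strand: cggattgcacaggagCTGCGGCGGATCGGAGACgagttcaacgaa
Bbc3, exon 3 of 4, chr7:16313758-16313802, plus strand: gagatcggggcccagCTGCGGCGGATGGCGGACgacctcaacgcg
Bax, exon 3 of 6, chr7:45465994-45466038, minus strand: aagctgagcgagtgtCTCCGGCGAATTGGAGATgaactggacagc
Bak1, exon 4 of 6, chr17:27022528-27022572, minus strand: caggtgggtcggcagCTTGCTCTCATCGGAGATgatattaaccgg

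Bcl2a1b has near-identical copies, so its counts are uncertain. Its coding sequence of 516 bases differed from that of Bcl2a1d at 6 positions (98.8% identity) and from that of Bcl2a1a at 11 (97.9%). The first 100 coding bases, the length of a read, are shown because no other stretch of that length had more differences between Bcl2a1b and Bcl2a1d. Even there Bcl2a1b differed from Bcl2a1d at 3 positions only, and from Bcl2a1a at 6. Capitals mark the positions at which the copies differ.
Bcl2a1b, exon 1, chr9:89199360-89199459, plus strand: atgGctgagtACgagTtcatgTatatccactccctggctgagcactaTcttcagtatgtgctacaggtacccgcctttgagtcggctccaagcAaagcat
Bcl2a1d, exon 1, chr9:88731620-88731719, minus strand: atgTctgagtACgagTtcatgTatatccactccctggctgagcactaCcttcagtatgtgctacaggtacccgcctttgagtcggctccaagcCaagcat
Bcl2a1a, exon 1, chr9:88957051-88957150, plus strand: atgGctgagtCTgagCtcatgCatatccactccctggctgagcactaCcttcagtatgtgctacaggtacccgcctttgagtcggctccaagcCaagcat
Of the 100-base windows in the exons of Bcl2a1b, 56.8% also occurred in another gene, among them Bcl2a1d, Bcl2a1a and the overlapping gene Gm29094. The share was 14.7% for Bad (with Gpr137), 9.44% for Bak1 (with Ggnbp1), 5.33% for Bax (with Gm45808) and 4.41% for Bcl2 (with the antisense gene D630008O14Rik). It was 0 for Bcl2l1, Mcl1, Bcl2l11, Bbc3 and Pmaip1.

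Counts per library ranged from 28000949 to 62407851, and levels are given as CPM, the count of a gene scaled to a library total of 1000000. In 3 libraries, CD4+ Sirt2-/- replicate 4, CD4+ WT replicate 1 and CD8+ WT replicate 1, counts fell on 8169, 12587 and 14411 genes, against 17730 to 22138 in the other 13. CD4+ Sirt2-/- replicate 4 was also the library with the most counts, and Bax, Bak1, Bad and Bcl2a1b had 0 counts in it, which allows up to 0.0481 CPM for each (3 counts; counting error only). The fits below are therefore also given without these 3 libraries. Sirt2 was at 40.2 to 81.1 CPM in CD4+ WT libraries and at 0 to 12.3 CPM in CD4+ Sirt2-/- libraries, and at 32.7 to 52.8 against 6.47 to 10.6 CPM in CD8+ TILs. For Sirt2 itself the fitted log2 fold change of Sirt2-/- over WT was -2.22 in the CD8+ set (adjusted p = 0.00663). It was -2.60 in the CD4+ set (adjusted p = 1), and -1.95 there without the few-gene libraries (adjusted p = 0.00163). Ddx3y, a Y-linked gene, was at 23.6, 125, 4.67 and 1.91 CPM in CD4+ WT replicates 1 to 4 and at 24.96, 112, 5.67 and 3.28 CPM in the CD8+ WT replicates, against at most 0.468 CPM in the 8 Sirt2-/- libraries. WT libraries thus differed widely among themselves, with close values at one replicate number. The methods give sex-matched controls, yet Y-linked transcripts were all but absent from the Sirt2-/- libraries only. Y-linked transcripts, and any difference in sex behind them, cannot be told apart from genotype, and sex was not tested. Cd4 was at 344 to 639 CPM in CD4+ libraries and at most at 4.94 CPM in CD8+ libraries, while Cd8a and Cd8b1 together reached at most 67.0 CPM in CD4+ and at least 1498 CPM in CD8+ libraries. The 4 Treg markers (Foxp3, Il2ra, Ctla4 and Ikzf2) summed to 1162 to 2715 CPM in CD4+ libraries and to 113 to 318 CPM in CD8+ libraries. Among the other marker lists, 4 NK genes (Ncr1, Klrb1c, Klra8 and Eomes) summed to 14.1 to 47.3 CPM in CD4+ and 212 to 418 CPM in CD8+ libraries. In CD8+ libraries nearly all of this was Eomes, which CD8+ T cells also express, at 208 to 404 CPM. In CD4+ libraries Eomes was at 10.7 to 38.6 CPM. Klrb1c reached 5.61 CPM in CD4+ and 11.4 CPM in CD8+ libraries. Ncr1 reached 3.39 CPM in CD4+ and 2.26 CPM in CD8+ libraries and Klra8 at most 1.18 CPM in any library. The 5 stromal genes summed to 57.7 to 188 CPM in CD4+ Sirt2-/- and 98.0 to 125 CPM in CD4+ WT libraries. In CD8+ TILs they summed to 40.2 to 107 CPM in Sirt2-/- and 37.1 to 46.8 CPM in WT libraries. This was mostly Pecam1 in all but CD8+ Sirt2-/- replicate 4, while Col1a1 was at 0 to 26.2 CPM in CD4+ and 0 to 21.6 CPM in CD8+ libraries. The 7 melanoma genes reached 72.9 CPM among CD4+ Sirt2-/- and 106 CPM among CD4+ WT libraries, and at most 14.2 CPM in the CD4+ libraries once the few-gene libraries were left out. Treg transcripts thus moved with each difference between cell types below, as did Eomes and Pecam1 within their lists, and their part in those differences was not tested. The sum of 11 myeloid genes was 9.67 to 33.6 CPM in CD4+ Sirt2-/- and 1.61 to 16.7 CPM in CD4+ WT libraries. In CD8+ TILs it was 8.77 to 36.2 CPM in Sirt2-/- and 2.29 to 9.45 CPM in WT libraries. These ranges overlapped, and the part of myeloid and stromal cells in differences between genotypes was not tested.

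Per kilobase of annotated exon, Mcl1 and Bcl2 led the family in each group, as the plot of levels per length shows. Mcl1 was first, with 177 ± 13.2 CPM per kb (SD, n = 4) in CD4+ WT, 194 ± 46.2 in CD4+ Sirt2-/-, 108 ± 8.25 in CD8+ WT and 125 ± 10.8 in CD8+ Sirt2-/- libraries. Bcl2 was second, with 20.6 ± 4.23, 18.2 ± 7.87, 90.9 ± 7.40 and 81.3 ± 5.24 CPM per kb in the same order. Only in CD8+ WT libraries did the ranges of Mcl1 and Bcl2 overlap, and without the few-gene library they did not (104 to 119 against 83.5 to 100.4 CPM per kb). The first 3 places in each group were held by the same genes without the few-gene libraries. The effector Bak1 came next in CD8+ Sirt2-/- libraries (19.99 ± 2.96 CPM per kb) and the BH3-only Bcl2l11 in CD8+ WT libraries (20.3 ± 2.58), and these neighbours overlapped in both groups. In CD4+ libraries the third place was held by Pmaip1, at 18.1 ± 1.42 CPM per kb in WT and 15.3 ± 4.83 in Sirt2-/- libraries, overlapping with Bcl2 above it. Bax, Bbc3, Bad and Bcl2a1b averaged at most 6.81 CPM per kb in all 4 groups. Their ranges overlapped with the next below in most places, except below Bbc3 in CD4+ WT libraries and below each of Bax, Bad and Bbc3 in CD8+ Sirt2-/- libraries. The near copy Bcl2a1d was well above Bcl2a1b, at 26.2 ± 3.24 CPM per kb in CD4+ WT and 16.3 ± 2.14 in CD8+ WT libraries.

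**Figure D1:**
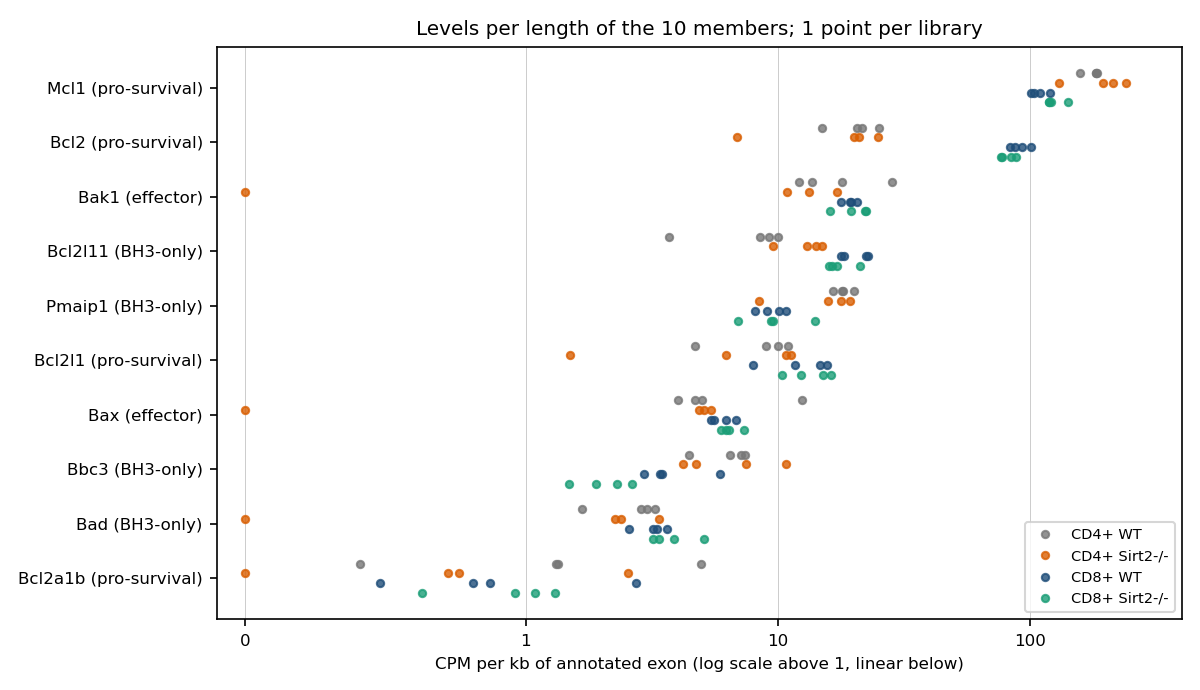
Level of each of the 10 members in each of the 16 libraries, in CPM per kb of annotated exon on an axis that is logarithmic above 1 and linear below; 1 point is 1 library, coloured by group. By mean, Mcl1 and Bcl2 come first in each group, while the points of Bcl2 overlap those of other members in CD4+ libraries. Bcl2 is far to the right in both CD8+ groups, and the points at 0 are those of CD4+ Sirt2-/- replicate 4.

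CD8+ and CD4+ TILs were compared first within WT mice, since the family differed most along this axis. Bcl2 and Bcl2l11 were higher in CD8+ TILs, Mcl1 and Pmaip1 were higher in CD4+ TILs, and the other 6 members did not pass the test. At an adjusted p below 0.05 (edgeR's quasi-likelihood test, two-sided, Benjamini-Hochberg adjustment over 14892 genes), 2 of 10 members were called higher in CD8+ TILs, against 4.89% of all genes tested. A further 2 of 10 were called lower, against 6.96%. The median log2 fold change of the 10 members was -0.10, beside -0.02 over all genes tested. The share of all genes whose groups came apart between cell types was not counted, in WT or in Sirt2-/- TILs. Separations of members between cell types, given below, therefore have no share to be read against. Without the few-gene libraries 5 of 10 members were called, Bbc3 being added on the CD4+ side, against 28.0% of all genes.

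Bcl2, the pro-survival member for which the family is named, was at 137, 188, 231 and 197 CPM in CD4+ WT replicates 1 to 4. In CD8+ WT replicates 1 to 4 it was at 850.4, 795, 919 and 765 CPM. Each CD8+ library held more than 3 times the Bcl2 of the highest CD4+ library, and the groups did not overlap. This was a log2 fold change of 2.06 with an SE of 0.18, or 4.18-fold (adjusted p = 5.38e-05), and 1.99 without the few-gene libraries (adjusted p = 1.44e-06).

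Mcl1, a short-lived pro-survival protein that T cells need at all stages, had the opposite order. It was at 625, 622, 632 and 536 CPM in CD4+ WT replicates 1 to 4 and at 343, 356, 408 and 372 CPM in the CD8+ WT replicates. The lowest CD4+ library stood above the highest CD8+ library. Mcl1 had a log2 fold change of -0.77 (SE 0.10, adjusted p = 7.1e-04), which is 1.71-fold more in CD4+ TILs, and it was -0.68 without the few-gene libraries (adjusted p = 4.61e-04). There were 2.05 to 2.48 counts of Bcl2 for each count of Mcl1 in CD8+ WT libraries and 0.219 to 0.367 in CD4+ WT libraries, so the more counted of the pair changed with the cell type. These counts are not scaled for length, with 9157 exon bases in Bcl2 and 3418 in Mcl1. Per kb, Mcl1 had the higher mean in both groups, at 108 against 90.9 CPM per kb in CD8+ WT libraries.

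Among the BH3-only members, Bcl2l11 was at 29.8, 74.2, 80.4 and 68.4 CPM in CD4+ WT replicates 1 to 4. The CD8+ WT replicates had 182, 147, 179 and 143 CPM. The lowest CD4+ value came from replicate 1, one of the few-gene libraries, and the groups were apart with or without it. The fitted log2 fold change was 1.27 (SE 0.28, 2.42-fold, adjusted p = 0.0138), and 1.05 without the few-gene libraries (adjusted p = 7.29e-05). With the replicate number as a block it was 1.37 (adjusted p = 0.0504).

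Pmaip1, whose protein binds Mcl1 and A1 above the other pro-survival members, was on the same side as Mcl1. Its levels were 45.1, 54.6, 49.3 and 49.1 CPM in CD4+ WT replicates 1 to 4 and 22.2, 29.3, 24.7 and 27.6 CPM in the CD8+ WT replicates. All CD4+ libraries were above all CD8+ libraries, which was 2.01-fold more in CD4+ TILs (SE 0.19 on the log2 scale, adjusted p = 0.00524). Without the few-gene libraries the log2 fold change was -0.93 (adjusted p = 9.05e-04).

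Bbc3, a BH3-only member induced by p53 and by FOXO factors, passed the test in WT TILs only without the few-gene libraries. It was at 15.2, 9.44, 15.7 and 13.7 CPM in CD4+ WT replicates 1 to 4 and at 12.5, 7.26, 6.23 and 7.39 CPM in the CD8+ WT replicates. The single CD8+ library within the CD4+ range was replicate 1, a few-gene library. With this and the other few-gene library the log2 fold change was -0.76 (SE 0.35, adjusted p = 0.206), and -0.92 (SE 0.26, adjusted p = 0.021) without them.

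The remaining members gave no call in WT TILs. Bcl2l1 had a log2 fold change of 0.44 (SE 0.31, adjusted p = 0.45), and Bad one of 0.14 (SE 0.41, adjusted p = 0.888). The effectors Bax and Bak1 had log2 fold changes of -0.26 (SE 0.46, adjusted p = 0.801) and 0.06 (SE 0.23, adjusted p = 0.917). Bcl2a1b, at 0.335 to 4.04 CPM over the 8 WT libraries, had one of -0.69 (SE 1.08, adjusted p = 0.77). These log2 fold changes, without the few-gene libraries, were 0.46 for Bcl2l1 (adjusted p = 0.0618), 0.12 for Bad (adjusted p = 0.751), -0.33 for Bax (adjusted p = 0.6), 0.38 for Bak1 (adjusted p = 0.135) and -0.47 for Bcl2a1b (adjusted p = 0.722). Bcl2a1d, the copy, was at 19.9 to 26.5 CPM in CD4+ WT and at 11.4 to 15.8 CPM in CD8+ WT libraries, with a log2 fold change of -0.75 (SE 0.23, adjusted p = 0.0559), and -0.54 without the few-gene libraries (adjusted p = 0.03).

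**Figure D2:**
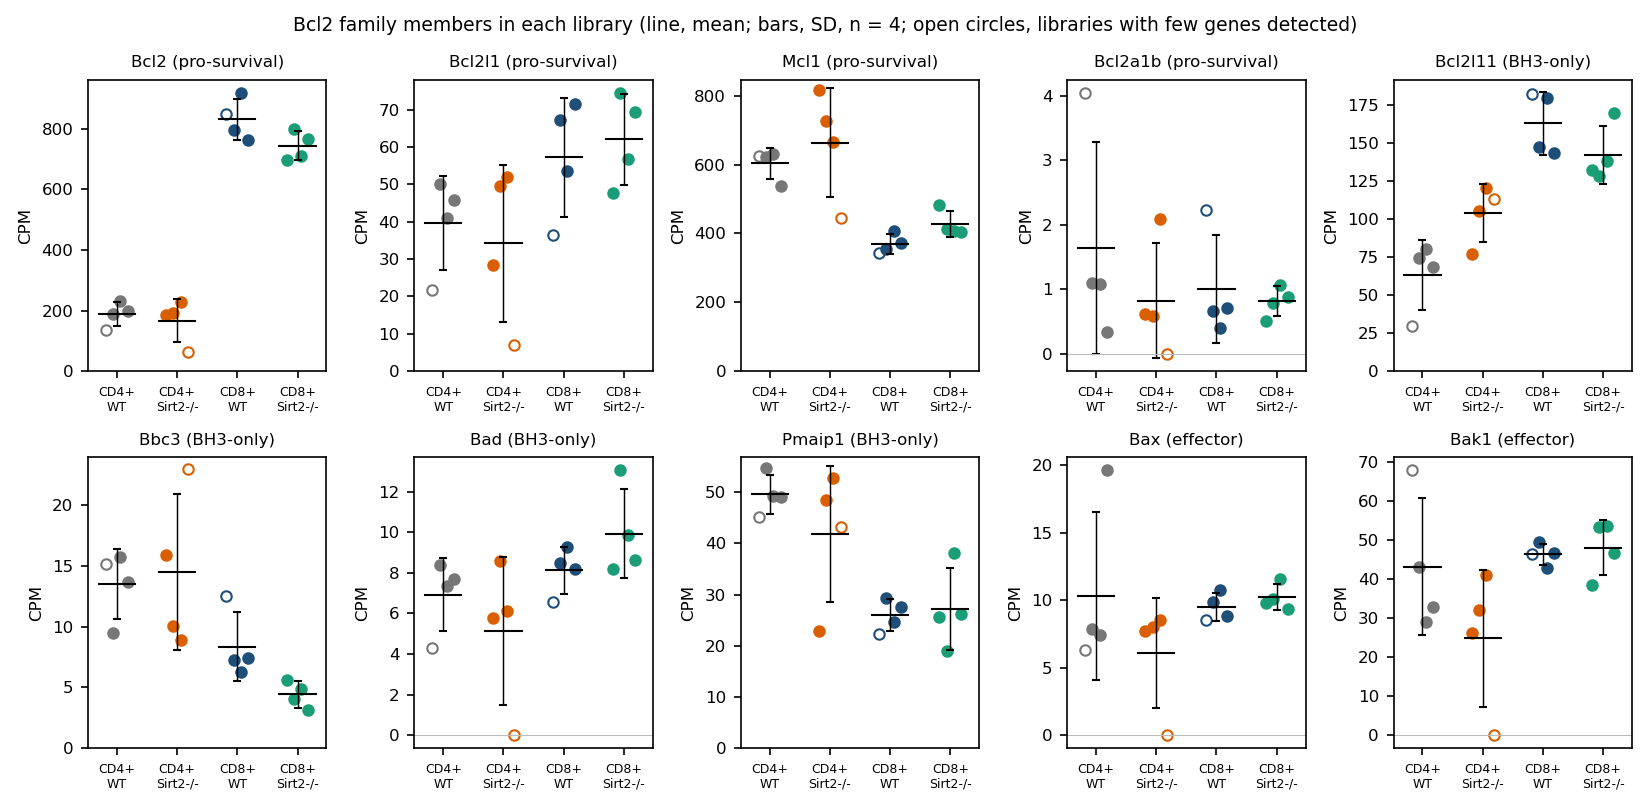
CPM of each member in each library, 1 panel per member on its own linear axis, with the 4 groups on the x axis; lines are means, bars are SDs (n = 4) and open circles are the 3 libraries with few genes detected. Bcl2 separates CD8+ from CD4+ libraries in both genotypes, and the open circles at 0 for Bax, Bak1, Bad and Bcl2a1b belong to CD4+ Sirt2-/- replicate 4.

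The same comparison within Sirt2-/- mice shares no library with the one in WT mice. Bcl2 was again higher in CD8+ TILs and was the single member called. This is 1 of 10 called higher, against 0.918% of 15787 genes tested, and 0 of 10 called lower, against 1.32%. DESeq2 called 3 of 10 members, against 1339 of all genes tested. CD4+ Sirt2-/- replicate 4 weighed heavily here: without it, the only few-gene library of this comparison, 5 of 10 members were called, against 25.4% of all genes. The median log2 fold change of the members was 0.61 with all libraries, beside 0.16 over all genes, and 0.44 beside -0.00 without that library.

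Bcl2 was at 184, 192, 229 and 63.2 CPM in CD4+ Sirt2-/- replicates 1 to 4 and at 699, 801, 711 and 766 CPM in the CD8+ Sirt2-/- replicates. The groups were far apart even leaving aside the low value of replicate 4. Its log2 fold change was 2.17 (SE 0.32, 4.51-fold, adjusted p = 0.0127), and 1.91 (SE 0.10, adjusted p = 4.47e-06) without replicate 4. The adjusted p was 0.0517 when CD4+ Sirt2-/- replicate 2 was left out and 0.0501 when CD8+ Sirt2-/- replicate 2 was left out, with log2 fold changes of 2.23 and 2.16. With the replicate number as a block it was 0.0587, at a log2 fold change of 2.28.

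Mcl1 was at 817, 726, 666 and 446 CPM in CD4+ Sirt2-/- replicates 1 to 4 and at 482, 413, 406 and 406 CPM in the CD8+ Sirt2-/- replicates. Replicate 4 was the only CD4+ library within the CD8+ range. For Mcl1 the log2 fold change was -0.63 (SE 0.17, adjusted p = 0.129) with it and -0.76 (SE 0.12, adjusted p = 0.00123) without it.

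Bcl2l11 was at 76.9, 105, 120.4 and 113 CPM in CD4+ Sirt2-/- replicates 1 to 4, and at 132, 129, 138 and 169.8 CPM in the CD8+ Sirt2-/- replicates. The groups touched without overlapping in CPM, and overlapped once TMM factors were applied. Its fitted log2 fold change was 0.44 (SE 0.18, adjusted p = 0.359), and 0.52 (SE 0.15, adjusted p = 0.026) without replicate 4.

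Bbc3 was at 15.9, 10.1, 8.94 and 22.9 CPM in CD4+ Sirt2-/- replicates 1 to 4 and at 5.63, 4.04, 4.902 and 3.14 CPM in the CD8+ Sirt2-/- replicates. Each CD4+ library was above each CD8+ library, a separation for which no share over all genes was counted. The fitted log2 fold change was -1.73 (SE 0.73, adjusted p = 0.391 by edgeR, 0.00188 by DESeq2), and -1.37 (SE 0.30, adjusted p = 0.00656 by edgeR) without replicate 4.

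The effector Bak1 was at 26.1, 32.0, 41.1 and 0 CPM in CD4+ Sirt2-/- replicates 1 to 4 and at 38.6, 53.5, 53.7 and 46.8 CPM in the CD8+ Sirt2-/- replicates. Its fitted log2 fold change of 0.99 (SE 1.32, adjusted p = 0.992) had the 0 in it, and it was 0.56 (SE 0.16, adjusted p = 0.0222) without replicate 4. Pmaip1, which differed in WT TILs, had a log2 fold change of -0.61 (SE 0.36, adjusted p = 0.653), and of -0.57 (SE 0.31, adjusted p = 0.236) without replicate 4. Its CD4+ Sirt2-/- replicate 1, at 22.9 CPM, lay within the CD8+ range of 19.0 to 38.2 CPM. Bcl2l1, Bad, Bax and Bcl2a1b were not called with or without replicate 4. Among these, the groups of Bax did not overlap, at 0 to 8.54 CPM in CD4+ and 9.35 to 11.6 CPM in CD8+ libraries. Its log2 fold change was 0.79 (SE 1.39), and 0.36 (SE 0.19) without replicate 4.

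**Figure D3:**
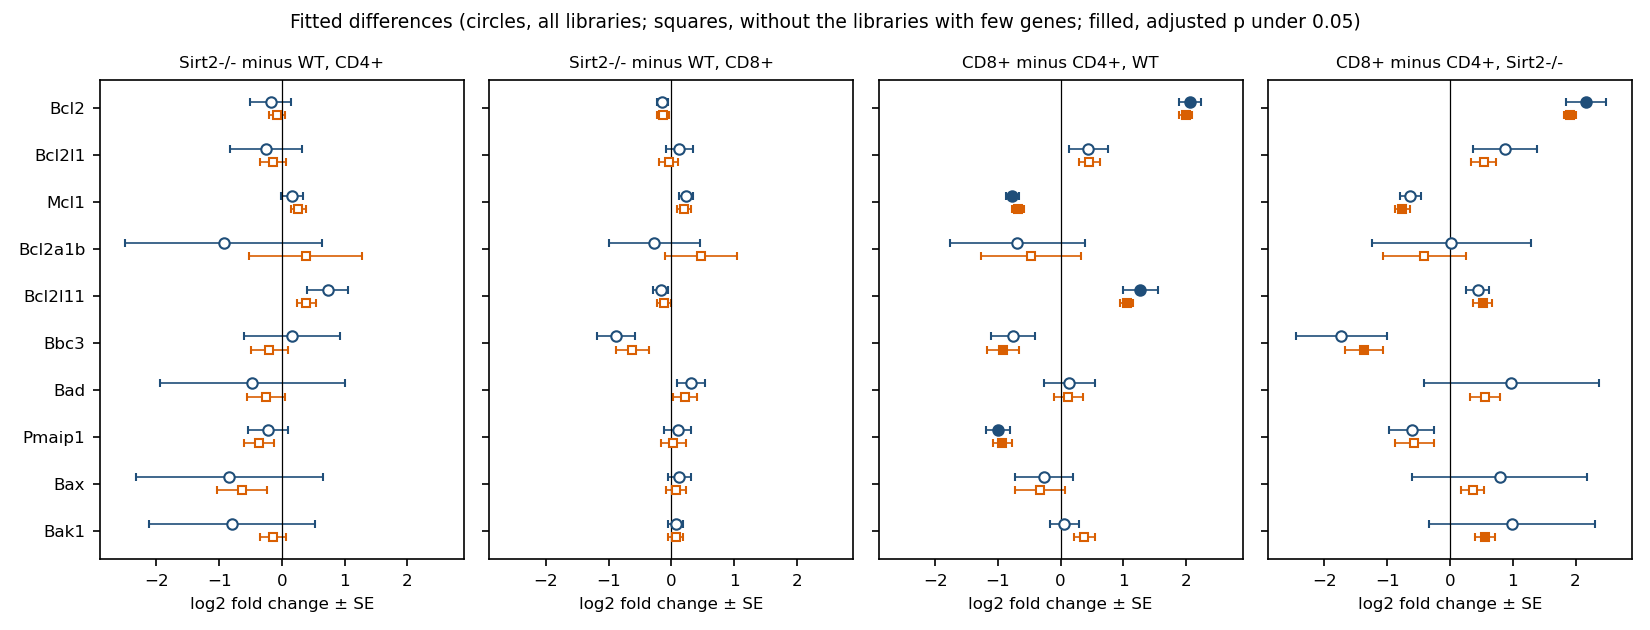
Log2 fold change (x axis, ± SE) of each member in the comparisons of Sirt2-/- with WT in CD4+ and CD8+ TILs and of CD8+ with CD4+ in WT and Sirt2-/- TILs; circles use all libraries, squares leave out the libraries with few genes, and filled symbols have an adjusted p below 0.05. Filled symbols are seen only in the comparisons of cell types, and the bars of Bax, Bak1 and Bad are widest in the fits with CD4+ Sirt2-/- replicate 4.

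Sirt2-/- and WT TILs were then compared within each cell type, the contrast the study was built for. None of the 10 members was called in CD4+ TILs (0 of 10, against 0% of 15070 genes tested), and none in CD8+ TILs (0 of 10, against 0.00654% of 15302 genes, which is Sirt2 alone). DESeq2 also called 0 members in either cell type, and so did edgeR without the few-gene libraries. At an unadjusted p below 0.05 in edgeR's test there were 0 of 10 members in CD4+ TILs, against 190 of 15070 genes. In CD8+ TILs there were 2 of 10, against 579 of 15302 genes. The members' log2 fold changes ran from -0.93 to 0.73 in CD4+ TILs (median -0.23, beside -0.11 over all genes) and from -0.88 to 0.31 in CD8+ TILs (median 0.09, beside 0.01). These comparisons share their libraries with those between cell types above. Y-linked transcripts, at unequal levels among the WT libraries, also differed along them.

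In CD4+ TILs, Bcl2l11 had the highest of these values. As listed above it was at 29.8 to 80.4 CPM in WT and at 76.9 to 120.4 CPM in Sirt2-/- libraries, so that 3 Sirt2-/- libraries were above all WT libraries and replicate 1 was not. The log2 fold change was 0.73 (SE 0.33, unadjusted p = 0.0502, adjusted p = 1), and 0.39 (SE 0.15, unadjusted p = 0.0264, adjusted p = 0.99) without the few-gene libraries. None of the 10 members had groups that did not overlap in CD4+ TILs, against 2.81% of all genes tested. Mcl1 had log2 fold changes of 0.16 (SE 0.17) and, without the few-gene libraries, 0.26 (SE 0.12, unadjusted p = 0.0542, adjusted p = 0.99). Its groups then no longer overlapped, at 666 to 817 CPM in 3 Sirt2-/- and 536 to 632 CPM in 3 WT libraries. How many of all genes came apart in that smaller set was not counted. Bcl2 had log2 fold changes of -0.18 (SE 0.33) and -0.08 (SE 0.13).

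In CD8+ TILs, Bbc3 was the 1 member of 10 whose groups did not overlap, against 2.93% of all genes tested. Its range was 3.14 to 5.63 CPM in Sirt2-/- libraries and 6.23 to 12.5 CPM in WT libraries. The log2 fold change was -0.88 (SE 0.31, unadjusted p = 0.0165, adjusted p = 0.986), and -0.62 (SE 0.26, unadjusted p = 0.035, adjusted p = 1) without CD8+ WT replicate 1. Mcl1 was the other member with an unadjusted p below 0.05, at a log2 fold change of 0.24 (SE 0.11, unadjusted p = 0.047, adjusted p = 0.986), and 0.20 (SE 0.11, unadjusted p = 0.0863, adjusted p = 1) without CD8+ WT replicate 1. Its Sirt2-/- range of 406 to 482 CPM overlapped the WT range of 343 to 408 CPM, and the groups came apart once TMM factors were applied. Bcl2 was at 699 to 801 CPM in Sirt2-/- and 765 to 919 CPM in WT libraries, with a log2 fold change of -0.14 (SE 0.09, adjusted p = 0.986; -0.13 without that library), and its groups too came apart with TMM factors. How many of all genes came apart with TMM factors was not counted, so these separations have no share to be read against. Bax, Bak1, Bcl2l1 and Pmaip1 had log2 fold changes between 0.07 and 0.13, each within its SE. Bad had one of 0.31 (SE 0.22), Bcl2l11 one of -0.17 (SE 0.12) and Bcl2a1b one of -0.27 (SE 0.72).

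The difference between CD4+ and CD8+ TILs in the effect of Sirt2 loss was tested over all 16 libraries. It was called for 0 of 10 members, against 0% of 17270 genes tested. At an unadjusted p below 0.05 there was 1 member of 10, against 342 of the 17270 genes. That member was Bcl2l11, with a difference of -0.90 on the log2 scale (SE 0.35, unadjusted p = 0.0205, adjusted p = 1), and of -0.50 (SE 0.19, unadjusted p = 0.0186) without the few-gene libraries. For Bbc3 the difference was -1.04 (SE 0.80, adjusted p = 1), and -0.42 (SE 0.40, adjusted p = 1) without them.

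Since BIM acts by binding BCL2, counts of Bcl2l11 for each count of Bcl2 were computed in each library, a ratio chosen after the levels had been seen and given with no test. It was 0.217, 0.394, 0.349 and 0.347 in CD4+ WT replicates 1 to 4 and 0.418, 0.547, 0.525 and 1.79 in CD4+ Sirt2-/- replicates 1 to 4. In CD8+ libraries it was 0.185 to 0.214 in WT and 0.160 to 0.222 in Sirt2-/- TILs. The CD4+ Sirt2-/- libraries were thus above the CD4+ WT libraries, narrowly so for replicate 1, while the CD8+ groups lay on each other. The value of 1.79 is that of the few-gene library, in which Bcl2 was at 63.2 CPM. Ratios of other pairs were computed too, and none followed the same pattern. Those of Bbc3, Bax, Bak1 and Bcl2l1 to Bcl2 and of Pmaip1 to Mcl1 overlapped between the genotypes in both cell types. Counts of Bcl2l11 for each count of Mcl1, another partner of BIM, overlapped between the genotypes, at 0.0477 to 0.127 in WT and 0.0942 to 0.254 in Sirt2-/- CD4+ libraries and at 0.384 to 0.531 and 0.274 to 0.419 in CD8+ libraries. Counts of Bcl2 for each count of Mcl1 were 1.45 to 1.94 in CD8+ Sirt2-/- libraries, below the 2.05 to 2.48 of CD8+ WT libraries. They overlapped in CD4+ libraries (0.142 to 0.344 in Sirt2-/- and 0.219 to 0.367 in WT). Neither Bcl2 nor Mcl1 was called for genotype in CD8+ TILs (edgeR, adjusted p = 0.986 for both). None of these ratios was tested, and how often ratios of other gene pairs come apart by genotype was not counted.

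**Figure D4:**
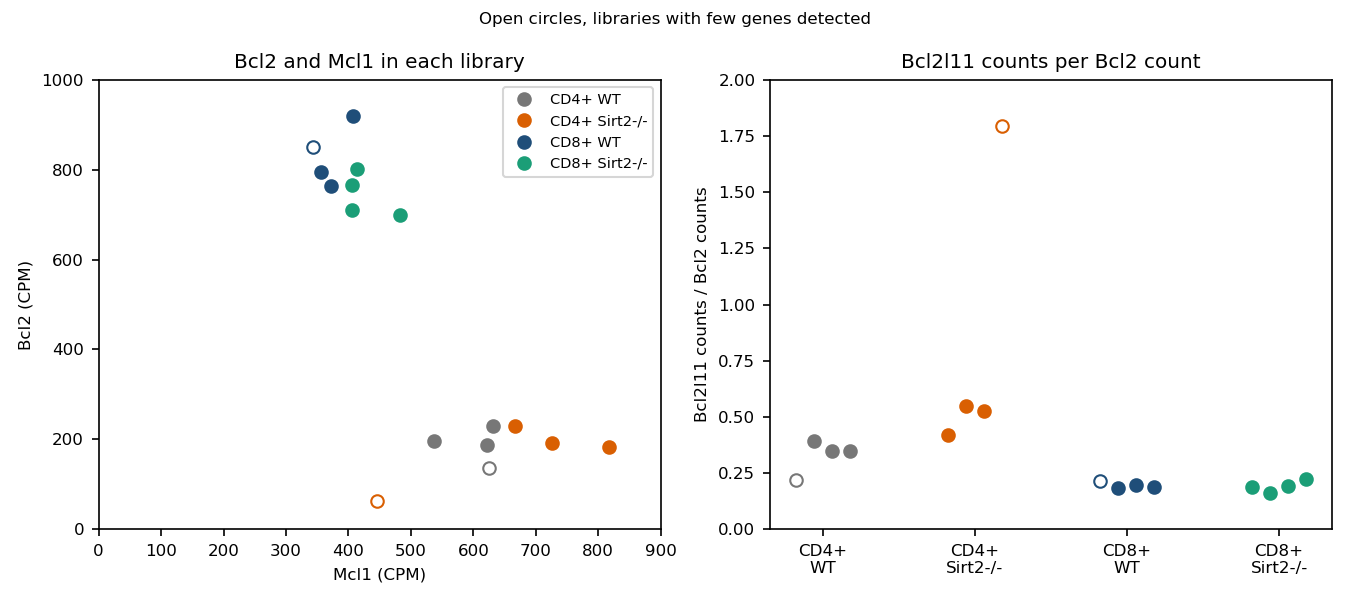
Left, Bcl2 (y axis) against Mcl1 (x axis), both in CPM, in each of the 16 libraries; right, counts of Bcl2l11 divided by counts of Bcl2 in each library by group. Open circles are the few-gene libraries. CD8+ libraries are high in Bcl2 and low in Mcl1, CD4+ libraries the reverse, and the ratio is at most 0.222 in the 8 CD8+ libraries.

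Promoters of the members that differed between cell types were read from RefSeq (GRCm38.p6), with 250 bases before and 50 after each start. Of the 10 members, 9 had an entry, with 15 promoters in all, and those of Bcl2 and Bcl2l11 are shown because both genes were higher in CD8+ TILs. Letters were searched on both strands, with overlapping matches counted apart: the GC box was GGGCGG, the CCAAT box was CCAAT, the TATA box was TATAAA, the FOXO motif was GTAAACA, the CRE was TGACGTCA, the AP-1 motif was TGANTCA and the STAT motif was TTCNNNGAA. Capitals mark matches.
Bcl2, chr1:106714241-106714540, minus strand: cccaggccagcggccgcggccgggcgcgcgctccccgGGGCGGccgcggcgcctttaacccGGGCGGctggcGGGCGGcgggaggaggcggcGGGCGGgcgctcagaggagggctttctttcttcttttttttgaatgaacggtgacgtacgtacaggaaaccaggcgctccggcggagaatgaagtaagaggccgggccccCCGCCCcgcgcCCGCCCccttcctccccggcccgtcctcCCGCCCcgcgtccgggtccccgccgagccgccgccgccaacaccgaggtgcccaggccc
Bcl2l11, chr2:128125788-128126087, plus strand: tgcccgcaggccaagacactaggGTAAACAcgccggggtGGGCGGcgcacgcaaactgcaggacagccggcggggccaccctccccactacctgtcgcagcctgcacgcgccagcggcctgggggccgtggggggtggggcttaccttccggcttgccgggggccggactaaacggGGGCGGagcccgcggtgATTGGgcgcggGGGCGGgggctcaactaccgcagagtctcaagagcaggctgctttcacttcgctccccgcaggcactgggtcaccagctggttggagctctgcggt
The Bcl2 window held 7 GC boxes and no other match, at a GC content of 76%, against a median of 52.7% over 32851 promoters. The first of 2 Bcl2l11 windows held 3 GC boxes, a CCAAT match and a FOXO match from -227 to -221, with the start at 0. A GC box was found in 35.7% of all promoters, CCAAT in 37.4%, the TATA box in 13.6%, the FOXO letters in 3.65%, the CRE in 1.79%, the AP-1 motif in 7.81% and the STAT motif in 8.3%. The FOXO letters also stood in 1 of 3 Bbc3 windows. The Mcl1 window held a single GC box. These matches are a description of letters, and binding was not measured.

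Over the 13 libraries with at least 15000 genes detected, the genes with the pattern most like that of Bcl2 were Mtap (Pearson r of log2 CPM = 0.993), Ly6c2 (0.992) and Myc (0.990), among 8324 genes with a mean of at least 10 CPM. For Bcl2l11 they were Slc16a1 (0.957), Hsd17b12 (0.956) and Psmd12 (0.953). The 13 points fall into CD4+ and CD8+ libraries, and any gene that differs strongly between these cell types has a high r.

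Other genes of the cell death pathway were counted by lists. The counts are to be read against the shares over all genes: 4.89% were called higher and 6.96% lower in CD8+ WT TILs, 0.918% higher and 1.32% lower in CD8+ Sirt2-/- TILs, and, in either direction without the few-gene libraries, 28.0% in WT and 25.4% in Sirt2-/- TILs. The median log2 fold change over all genes was -0.02 in WT TILs. Of 16 other genes of the Bcl2 family, 11 were tested between the cell types in WT TILs and 0 were called, with a median log2 fold change of -0.57. Without the few-gene libraries Bid, the BH3-only link from death receptors to mitochondria, was higher in CD8+ TILs (log2 fold change 0.97, adjusted p = 0.00231). Bnip3l, a mitophagy receptor, was then higher in CD4+ TILs (-0.53, adjusted p = 0.0192), as was Bcl2a1d (-0.54, adjusted p = 0.03).

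Downstream of Bax and Bak1, 3 of 19 genes of the apoptosome, caspases and their inhibitors were called higher in CD8+ WT TILs and 2 lower (median 0.16). The higher ones were Cycs, the cytochrome c that the effectors release (log2 fold change 0.94, adjusted p = 0.00494), and the mitochondrial channels Vdac2 (0.67, adjusted p = 0.0124) and Vdac3 (0.60, adjusted p = 0.0474). The lower ones were Birc3 (-0.79, adjusted p = 0.0209) and Birc2 (-0.64, adjusted p = 0.0241), which encode cellular inhibitors of apoptosis. In Sirt2-/- TILs 0 of 19 were called higher and 1 lower, Birc3 (-0.80, adjusted p = 0.0307). Without the few-gene libraries the counts were 9 higher and 2 lower in WT and 5 higher and 2 lower in Sirt2-/- TILs, where 28.0% and 25.4% of all genes were called.

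On the death receptor side, 1 of 11 genes was called higher in CD8+ WT TILs and 3 lower (median -0.60). Fasl, the ligand by which cytotoxic cells engage Fas, was at 68.9 ± 11.02 CPM in CD8+ WT and 21.01 ± 10.8 CPM in CD4+ WT libraries (SD, n = 4), with a log2 fold change of 1.63 (adjusted p = 0.0214). Its receptor Fas was lower (-1.31, adjusted p = 0.039), as were the TNF receptor Tnfrsf1b (-1.01, adjusted p = 5.16e-04) and Cflar, the inhibitor of caspase-8 known as FLIP (-0.74, adjusted p = 0.00191). In Sirt2-/- TILs Fasl was the single gene called (1.53, adjusted p = 0.0273). Leaving out the few-gene libraries, 1 was called higher and 3 lower in each genotype, against 28.0% and 25.4% of all genes.

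Of 13 upstream regulators, 2 were called higher in CD8+ WT TILs and 3 lower (median -0.45). Myc had a log2 fold change of 1.63 (adjusted p = 4.49e-05) and Trp53, which encodes p53, one of 0.53 (adjusted p = 0.0293). Stat5b and Stat5a, which relay cytokine signals to the nucleus, had log2 fold changes of -1.34 (adjusted p = 5.25e-04) and -0.81 (adjusted p = 0.0162), and the NF-κB gene Nfkb1 one of -0.74 (adjusted p = 0.00174). In Sirt2-/- TILs Stat5b alone was called (-1.36, adjusted p = 0.00229). Leaving out the few-gene libraries, 2 were called higher and 7 lower in WT and 2 higher and 5 lower in Sirt2-/- TILs, against 28.0% and 25.4% of all genes.

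Of 7 survival cytokine receptors, 0 were called higher in CD8+ WT TILs and 2 lower (median -0.23). Il2ra, the high-affinity IL-2 receptor chain and also a Treg marker, had a log2 fold change of -2.91 (adjusted p = 4.95e-05), and Il7r one of -1.54 (adjusted p = 0.0011). In Sirt2-/- TILs Il2ra was called again (-2.86, adjusted p = 0.00666). When the few-gene libraries were left out, 1 was called higher and 2 lower in WT and 2 higher and 2 lower in Sirt2-/- TILs, against 28.0% and 25.4% of all genes. Between Sirt2-/- and WT TILs, 0 genes of the 5 lists were called in either cell type.

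**Figure D5:**
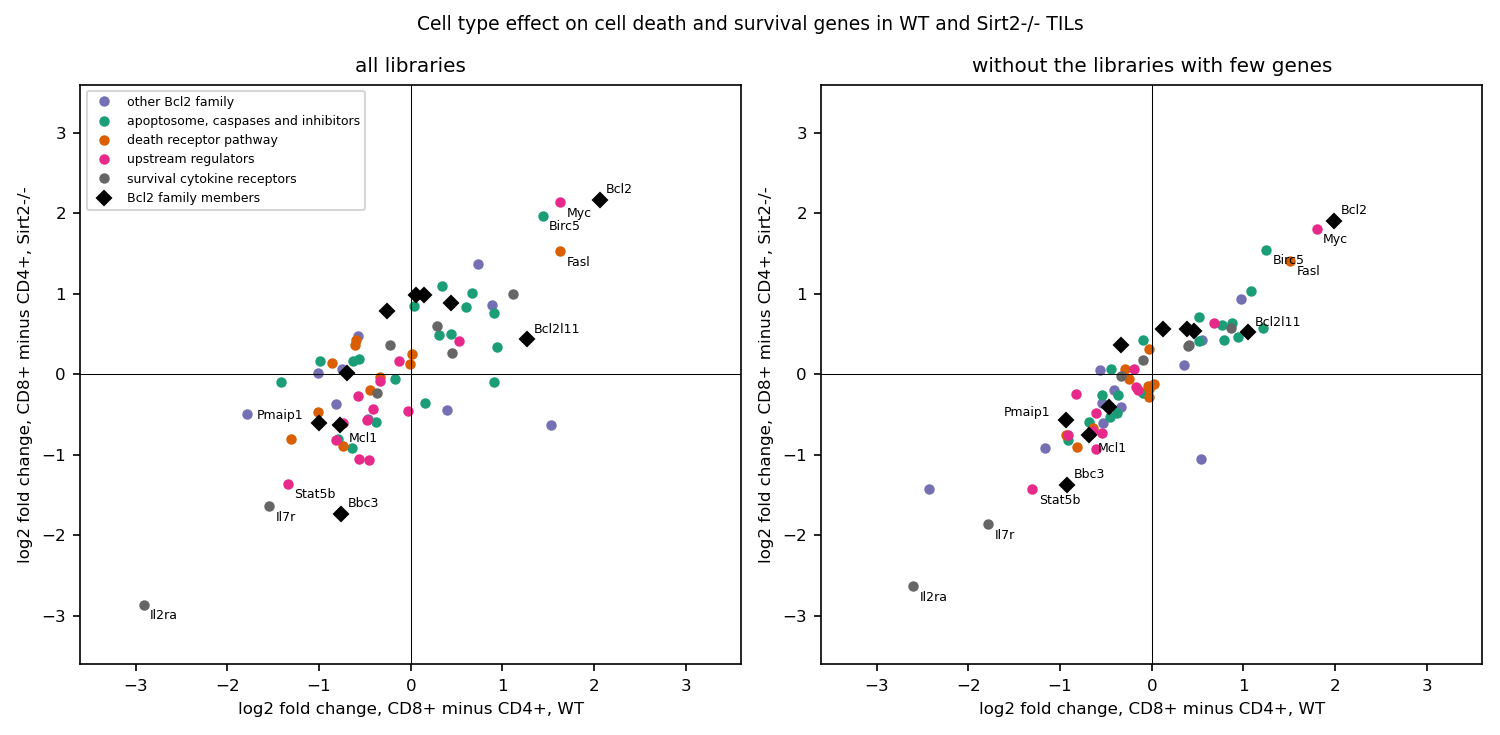
Log2 fold change of CD8+ over CD4+ TILs in WT (x axis) and in Sirt2-/- (y axis) mice for the 10 members (diamonds) and the tested genes of the 5 lists (points, coloured by list); left, all libraries, right, without the libraries with few genes. Bcl2, Myc and Fasl lie at the upper right and Il2ra, Il7r and Stat5b at the lower left in both panels.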

How the data were processed

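Total RNA of 16 TIL libraries was made into strand-specific, rRNA-depleted libraries from 1 ng of RNA and sequenced in 100-base read pairs. The deposited file is a single gene-by-library table of raw counts, to which the authors had applied no scaling. The submitters' processing notes name STAR, HTSeq and mm10; versions, and whether counting used the strand, are not given in the sources used here. All 55450 identifiers are in GENCODE mouse release M21. The table holds 0 columns without a sample.

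Groups came from the labels. The members and gene lists were chosen with earlier results of these data known. Counts were fitted in R 4.3.3 with edgeR 4.0.16 (filterByExpr, TMM, robust quasi-likelihood test, two-sided, Benjamini-Hochberg adjustment, threshold 0.05), with the libraries of the groups compared, and all 16 for the difference between cell types. SEs are the log2 fold change divided by the square root of F. CPM is the count per 1000000 counts of the library; the fits use TMM factors in addition. Named were all members, Sirt2, and up to 5 called genes per list and comparison, those with the largest change. The other genes named (Bid, Bnip3l and Bcl2a1d without the few-gene libraries) were chosen after their values were seen. The functions were tested on simulated data. Alternatives were DESeq2 1.42.0, its size factors within edgeR, no filter, the replicate number as a block, leaving out the 3 libraries with under 15000 genes detected, and leaving out each library in turn. Ddit3 is on 2 rows, the second at 0 throughout, and the first was used. No 2 libraries held identical counts. Reads carry no molecular identifiers in the sources used here, so floors of 3 counts cover counting error only.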

Additional observations from a re-analysis of the deposited data

Results flagged for a closer look

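Within groups of 4 libraries, 4 single values of a member stood apart from the other 3 by Dixon's criterion at the 95% level, out of 40 groups tested. Chance gives about 1 in 20, or 2 of 40. Mcl1 was at 536 CPM in CD4+ WT replicate 4, below 622 to 632 CPM in the others. Mcl1 was at 482 CPM in CD8+ Sirt2-/- replicate 1, above 406 to 413 CPM in the others. Bax was at 19.6 CPM in CD4+ WT replicate 4, against 6.32 to 7.84 CPM in the other CD4+ WT libraries, and leaving that library out turned its log2 fold change between cell types in WT TILs from -0.26 to 0.44 (adjusted p = 0.575). Bax was at 0 CPM in CD4+ Sirt2-/- replicate 4, the library with 8169 genes detected, against 7.69 to 8.54 CPM in the others.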

How the results depend on the processing

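In all, 42 fold changes were recomputed, those of the 10 members in each of 4 comparisons and of Bcl2l11 and Bbc3 for the difference between cell types. The size factors of DESeq2 within edgeR and no filter on low counts left the direction and call of all 42 as they were, and DESeq2 those of 40 of 42. DESeq2 called 7 genes for genotype in CD4+ TILs, 28 in CD8+ TILs, 1339 genes and 3 members between cell types in Sirt2-/- mice, and 2 genes for the difference between cell types. No filter gave 5 genes for genotype in CD8+ TILs. Leaving out the few-gene libraries gave 4394 and 4250 genes between cell types in WT and Sirt2-/- mice, with 5 members in each. It gave 6 and 7 genes for genotype in CD4+ and CD8+ TILs. The values that turned there were those of Bcl2a1b (0.38) and Bbc3 (-0.20) for genotype in CD4+ TILs, of Bcl2l1 (-0.04) and Bcl2a1b (0.47) for genotype in CD8+ TILs, and of Bcl2a1b (-0.41) between cell types in Sirt2-/- mice, and the cause was not tested.

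With the replicate number as a block, 4 genes were called for genotype in CD8+ TILs, and 108 genes and 0 members between cell types in Sirt2-/- mice (Bcl2 2.28, adjusted p = 0.0587 by edgeR), while Bcl2l11 between cell types in WT mice had 1.37 (adjusted p = 0.0504) and Bcl2a1b for genotype in CD8+ TILs turned to 0.03. Same-numbered CD4+ and CD8+ libraries correlated in their deviations from the group means by 0.07 to 0.12 in WT and -0.01 to 0.13 in Sirt2-/- mice. In WT mice each CD8+ library correlated best with its own number, and in Sirt2-/- mice replicates 1 and 2 did. Ddx3y levels in WT mice also went with the number, a hint from the data that the WT libraries may be paired. Between genotypes, where same-numbered libraries come from different mice, the values were -0.07 to 0.08. No label ties libraries to an animal, so the main fits treated them as sharing only a number. These values do not settle whether they are paired.

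Leaving out 1 library at a time gave 0 to 7 genes for genotype in CD8+ TILs (7 without CD8+ WT replicate 1), 1022 to 2766 between cell types in WT mice (without CD8+ WT replicate 4 and CD4+ WT replicate 1), and 111 to 4250 genes and 0 to 5 members in Sirt2-/- mice (without CD8+ Sirt2-/- replicate 3 and CD4+ Sirt2-/- replicate 4 for genes). The 4 members called in WT mice were called in each of these fits. Log2 fold changes that changed sign ranged, for genotype in CD4+ TILs, from -0.35 to 0.08 (Bcl2), -0.51 to 0.09 (Bcl2l1) and -0.22 to 0.35 (Bbc3). For genotype in CD8+ TILs they ranged from -0.04 to 0.29 (Bcl2l1), -0.53 to 0.47 (Bcl2a1b) and -0.09 to 0.25 (Pmaip1). Between cell types they ranged from -1.40 to 0.27 (Bcl2a1b), -0.41 to 0.44 (Bax) and -0.09 to 0.37 (Bak1) in WT mice and from -0.41 to 1.02 (Bcl2a1b) in Sirt2-/- mice. Bcl2a1b, at most at 4.04 CPM and sharing sequence with its copies, was the least certain member.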
